A study of Mus musculus with 15 samples.

Results

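The 9 genes described here encode matrix proteases and their inhibitors: the matrix metalloproteinases Mmp2, Mmp9, Mmp12 and Mmp14, the tissue inhibitors of metalloproteinases Timp1, Timp2 and Timp3, the cysteine protease Ctss (cathepsin S) and the cell surface protease Adam17. They were taken by name from a table of 48709 genes, in which each name stands on a single row, and all 9 were among the 16554 genes with enough counts for a test. RNA from pancreatic islets was sequenced in 15 female NOD/ShiLtj mice, an inbred strain that develops autoimmune diabetes spontaneously, with 3 mice at each of 5 ages (4, 6, 8, 10 and 12 weeks). The mice carried no transgene and received no treatment, and no other strain was sequenced beside them. Age is the only factor that the labels give between the groups. Dates of islet isolation and library preparation are not given in the sources used here, so differences in handling between the ages cannot be told apart from age. Islets were released with collagenase and collected by hand, so each library holds endocrine cells together with whatever cells remained attached. In such bulk samples, a change in the number of cells of a type and a change in RNA per cell cannot be told apart.

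Matrix metalloproteinases are zinc enzymes that cut collagens, laminins and other matrix proteins as well as many secreted factors. Mmp2 and Mmp9 are gelatinases that cleave type IV collagen of basement membranes, Mmp12 is the macrophage elastase, and Mmp14 is anchored in the plasma membrane, where it activates the Mmp2 proenzyme with Timp2 as a bridging partner. Timp1, Timp2 and Timp3 bind the active sites of metalloproteinases, each with its own range of enzymes. Timp3 is held in the matrix and also inhibits Adam17, the sheddase that releases tumor necrosis factor and other membrane proteins from cell surfaces. Cathepsin S works in the endosomes of antigen-presenting cells, where it trims the invariant chain from MHC class II molecules, and it can also degrade matrix outside the cell. In NOD mice, leukocytes first gather around the islet and then cross the basement membrane that encloses it.

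Each library held between 25407492 and 41616275 counts, where a count is a sequenced read pair or read assigned to a gene. At this depth 3 counts in a library, taken as the floor of detection, equal 0.0754 to 0.128 CPM (counts as a rate of the library size, scaled between libraries by the TMM method of edgeR). Endocrine hormone and transcription factor transcripts (12 genes including Ins1, Ins2 and Gcg) summed to about 484000 to 500000 TPM (a rate of the library that also divides by transcript length) at 4 weeks and to about 318000 to 365000 at 12 weeks, so endocrine cells, which the islet label calls for, were present at all ages. Markers of other cells moved with age as well. The summed TPM of 8 T cell markers ran from 3.47 to 39.9 at 4 weeks and from 454 to 705 at 12 weeks, that of 8 macrophage and myeloid markers from 119 to 351 and from 2170 to 2770, and that of 8 mesenchymal markers from 184 to 249 and from 589 to 1030. That of 5 lymph node stroma markers ran from 1.37 to 17.5 and from 986 to 1490, that of 6 B cell markers from 5.93 to 10.3 and from 255 to 410, and that of 4 mesothelial markers from 117 to 157 and from 17.1 to 28.1. The mesothelial sum fell although 3 of its 4 genes passed the test as higher at 12 against 4 weeks and 1 as lower. Their median log2 fold change was 4.89. The sum of 7 immediate-early genes ran from 195 to 261 TPM at 4 weeks and from 464 to 710 TPM at 12 weeks. Acinar markers ranged from 1990 to 29000 TPM with overlapping ranges at all ages. Single libraries stood apart from their group. Replicate 1 at 8 weeks had 10.1 TPM of T cell markers against 159 and 222 in the other mice of that age and 238 TPM of myeloid markers against 897 and 1240, and replicate 1 at 12 weeks had 416 TPM of 7 intestinal markers against 23.7 to 84.7 in all other mice. Results are given with and without these libraries where they change.

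Promoter sequence is shown for Ctss and Mmp12, since these are the members whose window of 300 bases around the transcript start (250 before, 50 after) held one of the 3 short motifs searched, and since Mmp12 was the only member whose mean was lower at 12 than at 4 weeks. The motifs were the AP-1 motif TGANTCA, the PU.1 motif GAGGAAG and the interferon regulatory factor (IRF) motif GAAANNGAA, on both strands. None of the letters of one match were shared with another. Of 32851 RefSeq promoter windows (27025 genes), 7.81% held the AP-1 motif, 13.6% the PU.1 motif and 8.56% the IRF motif. Of the 9 members, 7 matched a window, and Mmp12 matched 2. The sequences are printed from 5′ to 3′ on the coding strand (RefSeq, GRCm38.p6), 130 bases before and 20 bases after the start, with motif matches in capitals. The first is Ctss at chr3:95526656-95526805, where the IRF match lies 21 to 13 bases before the start and a PU.1 match in reverse orientation reaches from 1 base before the start to base 6 after it. The others are the 2 starts of Mmp12, at chr9:7344267-7344416, with a reverse PU.1 match 87 to 81 bases before the start, and at chr9:7347244-7347393, with an AP-1 match 44 to 38 bases before the start.
Ctss: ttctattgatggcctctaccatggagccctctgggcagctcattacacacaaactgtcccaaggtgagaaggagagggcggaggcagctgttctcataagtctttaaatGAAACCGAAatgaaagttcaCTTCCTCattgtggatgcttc
Mmp12, upstream start: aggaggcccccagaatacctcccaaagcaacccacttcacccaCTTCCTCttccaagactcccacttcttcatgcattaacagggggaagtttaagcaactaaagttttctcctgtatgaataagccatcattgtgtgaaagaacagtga
Mmp12, downstream start: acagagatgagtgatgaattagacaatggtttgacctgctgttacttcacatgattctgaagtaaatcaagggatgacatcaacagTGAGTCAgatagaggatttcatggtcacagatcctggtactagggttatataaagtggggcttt
These matches are descriptions of letters in the windows, and no binding was measured here. The 5 other members with a window (Mmp14, Timp1, Timp2, Timp3 and Adam17) held none of the 3 motifs in it.

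Between the age extremes, most of the proteases and inhibitors rose. In 12-week-old compared with 4-week-old mice, 7 of the 9 members were higher at a Benjamini-Hochberg adjusted p under 0.05 in edgeR's quasi-likelihood test (Mmp9, Ctss, Mmp2, Mmp14, Timp2, Timp1 and Adam17), and 0 were lower. Many genes differ at this distance in age. Of all genes tested, 53.5% passed the same threshold, 26.3% as higher and 27.2% as lower. The 12-week and 4-week values did not overlap for any of the 9 members, which also held for 64.2% of all genes. The median log2 fold change was 1.58 over the members and -0.05 over all genes tested. With libraries scaled by their totals instead of TMM, 78.3% instead of 49.2% of all called genes were higher and the median of all genes moved by 0.25 on the log2 scale, yet no member changed direction. Tested over all 5 ages together, 7 of the 9 members differed among ages (56.0% of all genes did), the exceptions being Mmp12 (adjusted p = 0.052) and Timp3 (adjusted p = 0.415). Timp1, at an adjusted p of 0.0437 in that test, lost the call with the replicate block, a term for the replicate number (0.0833), without a filter on low counts (0.0506), and without any one of 11 of the 15 mice (0.0534 to 0.104).

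**Figure D1:**
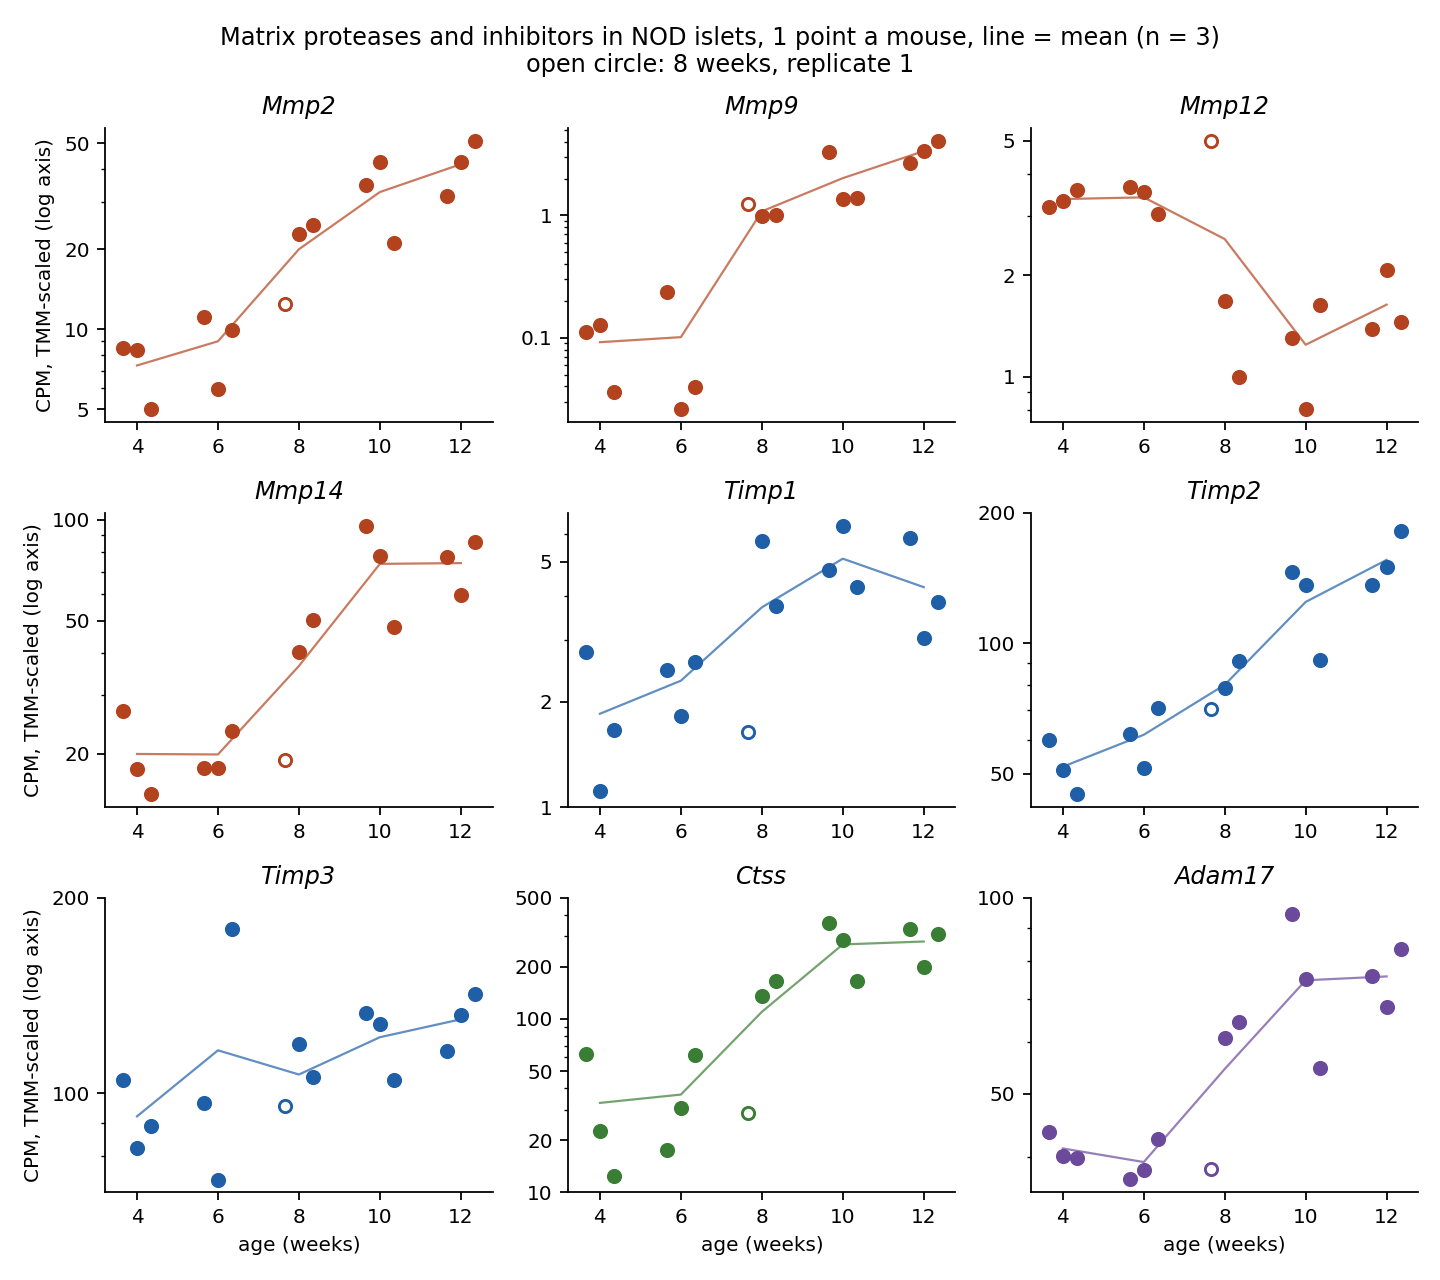
Level of each member in each mouse, in TMM-scaled CPM on a log axis, against age in weeks, with 1 point per mouse, a line through the mean of the 3 mice, and replicate 1 at 8 weeks as an open circle. Mmp9 lies at or under 0.238 CPM in all mice of 4 and 6 weeks and at or above 0.998 CPM in all older mice, whereas the open circle lies with the younger mice for Ctss, Mmp14, Timp1 and Adam17.

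Of the 4 metalloproteinases among the members, Mmp9 had the largest fold change, from a level at the floor in most young mice. Mmp9 (ENSMUSG00000017737, chr2:164940780-164955850, plus strand, in GRCm38 coordinates as in the deposited table) is protein-coding. Its counts were 3, 3 and 1 in the 3 mice at 4 weeks and 6, 1 and 1 at 6 weeks. They were 34, 28 and 28 at 8 weeks, 91, 54 and 42 at 10 weeks and 82, 100 and 129 at 12 weeks. Every mouse of 8 weeks or older was thus above every younger mouse. That includes the 8-week-old replicate 1, low in T cell and myeloid markers, which had 1.24 CPM (0.998 and 1.0 CPM in the others of its age). Its sums of B cell (34.9 TPM), lymph node stroma (58.8 TPM) and mesenchymal markers (280 TPM) exceeded those of all mice of 4 and 6 weeks. The highest of those were 21.1, 24.2 and 249 TPM, and the part of these cells in the Mmp9 values was not tested. The fitted log2 fold change of 12 against 4 weeks was 5.15 (SE 0.616, adjusted p = 0.000174). Because the 4-week counts were at or under the floor, that value depends on the prior count of the fit. The ratio of the pooled counts, 311 against 7, was 37.3, with a 95% exact interval of 17.9 to 93.6, which covers counting error only. From 6 to 8 weeks the same ratio was 11.9 (5.81 to 28.5), with 6 of the 8 counts at 6 weeks coming from replicate 1. Without that mouse the fitted log2 fold change of this step was 4.91 (adjusted p = 0.0797) in place of 3.47. The immediate-early sum divided the ages in the same way, with 164 to 261 TPM in the mice of 4 and 6 weeks, 392 to 407 TPM at 8 weeks (393 in replicate 1) and 356 to 710 TPM in older mice, and its part in the Mmp9 values was not tested. Neutrophils are a known store of Mmp9 protein. Of 5 neutrophil markers, Ly6g had no count in 8 of the 15 mice, S100a8 in 6, Mpo in 5 and S100a9 in 3, and the highest counts of these 4 genes in any mouse were 7, 11, 16 and 9. The sum of the 5 markers ran from 0.133 to 1.59 TPM at 4 weeks and from 4.72 to 8.69 TPM at 12 weeks, and Csf3r, which other myeloid cells also express, had counts in all 15 mice, up to 306. The part of neutrophils in the Mmp9 values was not tested.

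Mmp2, the second gelatinase, was at 8.53, 8.38 and 5.03 CPM in the 3 mice at 4 weeks and at 11.1, 5.97 and 9.97 CPM at 6 weeks. Mmp2 (ENSMUSG00000031740, chr8:92827291-92853420, plus strand) is protein-coding. It was at 12.4, 22.8 and 24.7 CPM at 8 weeks, 34.7, 42.5 and 21.0 CPM at 10 weeks and 31.7, 42.3 and 50.9 CPM at 12 weeks. Here the 8-week-old replicate 1 lay just above the highest 6-week-old mouse and below both other mice of its own age. The 12-week-old mice exceeded the 4-week-old mice by a log2 fold change of 2.51 (SE 0.351, adjusted p = 0.000291), or 5.69-fold.

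Mmp14, the membrane-bound activator of Mmp2, was at 26.8, 18.0 and 15.2 CPM at 4 weeks and at 18.2, 18.1 and 23.5 CPM at 6 weeks. Mmp14 (ENSMUSG00000000957, chr14:54431612-54441265, plus strand) is protein-coding. At 8 weeks the mice split, with 19.2 CPM in replicate 1 and 40.4 and 50.3 CPM in the others. At 10 weeks it was at 95.9, 78.1 and 47.8 CPM and at 12 weeks at 77.4, 59.6 and 86.0 CPM, all above every mouse of 4 and 6 weeks. The log2 fold change of 12 against 4 weeks was 1.90 (SE 0.342, adjusted p = 0.00084), or 3.72-fold, and the step from 10 to 12 weeks was 0.01 (SE 0.327, adjusted p = 0.999).

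Mmp12, the macrophage elastase, had a lower mean at 12 than at 4 weeks, short of the threshold after adjustment. Mmp12 (ENSMUSG00000049723, chr9:7344381-7369499, plus strand) is protein-coding. It was at 3.18, 3.33 and 3.58 CPM at 4 weeks and 3.65, 3.53 and 3.03 CPM at 6 weeks. At 8 weeks replicate 1 had 5.0 CPM, the highest of all 15 mice, while the others had 1.68 and 1.0 CPM. The 6 mice of 10 and 12 weeks had 0.804 to 2.07 CPM, below all mice of 4 and 6 weeks. The log2 fold change of 12 against 4 weeks was -1.04 (SE 0.455), which passed in edgeR's quasi-likelihood test unadjusted (unadjusted p = 0.0404) but not after adjustment (adjusted p = 0.0705). Without replicate 1 at 8 weeks the same difference had an adjusted p of 0.00764, and without replicate 3 at 8 weeks it had 0.0299. The log2 fold change stayed at -1.04 in both, since the 8-week-old mice enter this comparison only through the fit shared by all ages. All 8 macrophage and myeloid markers were higher at 12 than at 4 weeks, so this macrophage gene and the markers of that cell had fold changes of opposite sign. Of 12 endocrine markers, 11 were lower at 12 weeks, and their part in the Mmp12 values was not tested. Its exons share 157 bases with those of Mmp1b on the opposite strand, to which 0 counts were assigned.

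Of the inhibitors, Timp2 had the largest rise and the smallest standard error. Timp2 (ENSMUSG00000017466, chr11:118301069-118355740, minus strand) is protein-coding. Its level was 59.8, 51.1 and 44.9 CPM at 4 weeks and 61.8, 51.7 and 71.1 CPM at 6 weeks, then 70.5, 78.9 and 91.2 CPM at 8 weeks. It was 146, 136 and 91.6 CPM at 10 weeks and 136, 150 and 181 CPM at 12 weeks. The means of the 3 mice thus rank in the order of age, and the 12-week-old mice exceeded the 4-week-old mice by a log2 fold change of 1.58 (SE 0.185, adjusted p = 0.000168).

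Timp1, the soluble inhibitor that inflammatory signals are known to induce, was low throughout. Timp1 (ENSMUSG00000001131, chrX:20870166-20874735, plus strand) is protein-coding. It was at 2.77, 1.11 and 1.66 CPM at 4 weeks, 2.46, 1.82 and 2.60 CPM at 6 weeks and 1.64, 5.74 and 3.75 CPM at 8 weeks. At 10 weeks it was at 4.74, 6.33 and 4.25 CPM and at 12 weeks at 5.83, 3.04 and 3.84 CPM, so the lowest 12-week-old mouse stood only slightly above the highest 4-week-old mouse. The log2 fold change of 12 against 4 weeks was 1.19 (SE 0.428, adjusted p = 0.0323), and this call did not survive the loss of replicate 2 or 3 at 4 weeks (adjusted p = 0.118 and 0.0937) or of replicate 1 or 3 at 12 weeks (0.126 and 0.0542). The replicate block gave an adjusted p of 0.0529. Timp1 lies in an intron of Syn1 on the opposite strand, with 0 shared exon bases, and Syn1 collected 23884 counts over all mice against 1558 for Timp1. Whether reads were assigned by strand is not given in the sources used here, so intronic Syn1 reads on Timp1 cannot be told apart from its own.

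Timp3, the matrix-bound inhibitor, did not pass the test in any comparison. Timp3 (ENSMUSG00000020044, chr10:86300372-86349506, plus strand) is protein-coding. Its 4-week values were 105, 82.4 and 89.1 CPM and its 12-week values 116, 132 and 142 CPM, so the groups did not overlap. The log2 fold change was 0.49 (SE 0.244, adjusted p = 0.105). A single mouse, replicate 3 at 6 weeks, had 179 CPM against 96.8 and 73.6 CPM in the others of its age, and without it the adjusted p of the same comparison was 0.0104, without replicate 2 at 6 weeks 0.047. The log2 fold change stayed at 0.49 in both, since the 6-week-old mice enter that comparison only through the shared fit. The 10-week-old mice had 105 to 133 CPM and the 8-week-old mice 95.7 to 119 CPM, between the extremes. Timp3 shares 1733 exon bases with Syn3 on the opposite strand, which collected 767 counts against 49843 for Timp3.

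Ctss had the highest mean TPM of the members at both extremes and varied widely between mice of an age. At 4 weeks its range overlapped that of Timp2. Ctss (ENSMUSG00000038642, chr3:95526786-95556403, plus strand) is protein-coding. It was at 63.2, 22.7 and 12.5 CPM at 4 weeks and at 17.5, 30.5 and 61.9 CPM at 6 weeks. It was at 28.6, 136 and 165 CPM at 8 weeks, at 358, 284 and 165 CPM at 10 weeks and at 332, 199 and 308 CPM at 12 weeks. The high young mice, replicate 1 at 4 weeks and replicate 3 at 6 weeks, were also those with the highest myeloid (351 and 378 TPM) and T cell (39.9 and 37.5 TPM) marker sums of their ages. The log2 fold change of 12 against 4 weeks was 3.09 (SE 0.713, adjusted p = 0.00331), or 8.52-fold. Without replicate 1 at 4 weeks it was 3.99 (adjusted p = 0.00213).

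Adam17 had the smallest change among the members called as higher at 12 against 4 weeks. Adam17 (ENSMUSG00000052593, chr12:21323509-21373632, minus strand) is protein-coding. Its level was 43.7, 40.1 and 39.9 CPM at 4 weeks and 37.0, 38.2 and 42.7 CPM at 6 weeks. At 8 weeks it was 38.4, 60.9 and 64.5 CPM, with replicate 1 again at the level of younger mice. At 10 weeks it was 94.3, 75.0 and 54.8 CPM and at 12 weeks 75.8, 67.9 and 83.5 CPM. The log2 fold change of 12 against 4 weeks was 0.88 (SE 0.197, adjusted p = 0.00282), or 1.84-fold. Its exons overlap those of Iah1 on the opposite strand by 311 bases, and Iah1 collected 4961 counts against 25516 for Adam17.

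The 4 steps between neighboring ages divide the difference between the extremes. From 4 to 6 weeks 0 of the 9 members were called by edgeR's quasi-likelihood test (0.0906% of all genes were), 0 had an unadjusted p under 0.05 (8.67% of all genes), and DESeq2 and the edgeR exact test also called 0. The largest log2 fold change of that step was 0.34, for Timp3.

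From 6 to 8 weeks 0 members were called after adjustment, as was true of 0.0% of all genes. Unadjusted p-values under 0.05 were reached by 5 members, Mmp9, Mmp2, Mmp14, Adam17 and Ctss, compared with 18.0% of all genes. Those of Mmp9 (log2 fold change 3.47, SE 0.619, adjusted p = 0.122) and Mmp2 (1.16, SE 0.339, adjusted p = 0.172) were the smallest, and these 2 members were also the ones whose 8-week and 6-week values did not overlap (19.3% of all genes). DESeq2 called both (3.28% of all genes), and the edgeR exact test called Mmp9 (1.85% of all genes). The calls of this step depended on replicate 1 at 8 weeks. Over all genes, 0 were called with that mouse and 797 without it. The log2 fold change of Mmp9 was no larger without that mouse (3.36 against 3.47). A call also depends on the spread and on the adjustment over all genes, and the part of that mouse's Mmp9 value in it was not tested. Without replicate 1 at 8 weeks, 5 members were called against 4.72% of all genes tested: Mmp9, Mmp2, Mmp14 and Adam17 as higher, with log2 fold changes of 3.36, 1.41, 1.19 and 0.67, and Mmp12 as lower, with -1.34. That mouse was singled out in these same data by its low T cell and myeloid marker sums, so these calls are a description.

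From 8 to 10 weeks 1 member was called, Timp2, with a log2 fold change of 0.63 (SE 0.181, adjusted p = 0.0375), while 16.8% of all genes were called. Unadjusted p-values under 0.05 were reached by 4 members, Timp2, Mmp14, Adam17 and Mmp12, against 37.9% of all genes, so the share of members in this step was close to that of genes at large. Mmp12 rested on replicate 1 at 8 weeks, with a log2 fold change of -1.04 in this step and of -0.11 (adjusted p = 0.849) without that mouse. The call of Timp2 was lost in a fit of the 8- and 10-week-old mice alone (adjusted p = 0.171), with the replicate block (0.0682), and without any one of 5 mice (0.0532 to 0.154): replicate 2 at 4 weeks, replicates 1 and 2 at 8 weeks, and replicates 1 and 2 at 10 weeks. From 10 to 12 weeks 0 members were called (0.0% of all genes) and 0 had an unadjusted p under 0.05 (7.52% of all genes). DESeq2 and the exact test called 0 members in that step as well. Its largest log2 fold change was 0.74 for Mmp9 (SE 0.444, adjusted p = 0.715).

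**Figure D2:**
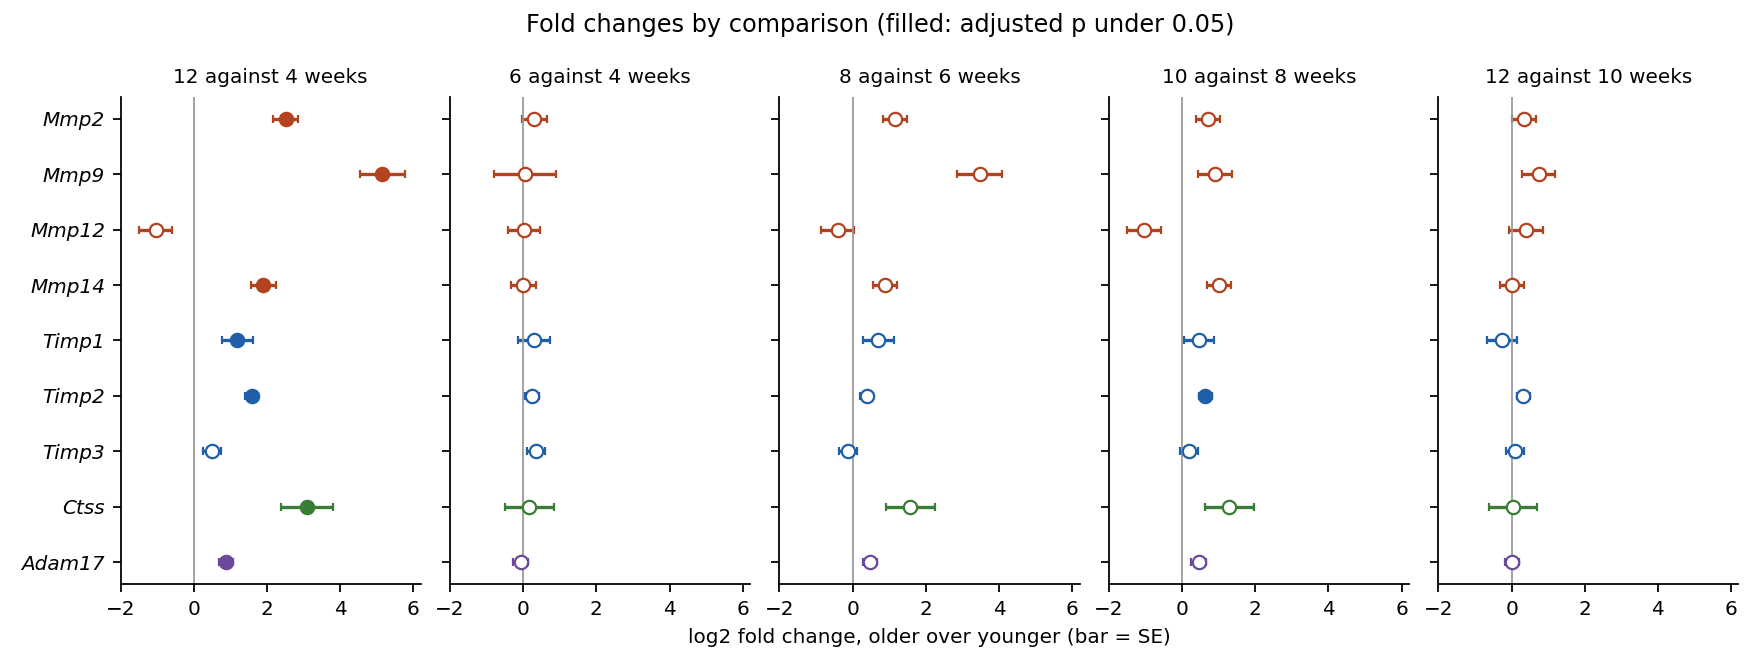
Log2 fold change of each member, older over younger age, in the comparison of the age extremes and in the 4 steps between neighboring ages, with SE as bars and filled points for an adjusted p under 0.05 in edgeR's quasi-likelihood test. In the extremes 7 points are filled, and in the steps only that of Timp2 at 10 against 8 weeks is, while Mmp9 at 8 against 6 weeks has the largest step, 3.47.

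Per transcript length, the order of the members changed between the extremes. In deposited TPM at 4 weeks, Ctss (47.3 ± 40.4, SD, n = 3), Timp2 (25.7 ± 4.56) and Timp3 (21.8 ± 3.61) stood highest, and the ranges of neighbors among these did not separate. Mmp14 (12.0 ± 4.09) and Adam17 (11.1 ± 1.0) came next with overlapping ranges, then Mmp2 (4.18 ± 1.18) and Timp1 (4.05 ± 2.01), likewise overlapping, then Mmp12 (0.893 ± 0.0454) and Mmp9 (0.0501 ± 0.0266), each apart from its neighbors. At 12 weeks Ctss (519 ± 141 TPM) and Timp2 (101 ± 21.5 TPM) each stood clear of the next. Mmp14 (58.5 ± 13.5), Timp3 (40.2 ± 6.43), Mmp2 (31.3 ± 9.10) and Adam17 (26.7 ± 4.27) formed a chain in which each range overlapped the next, and Timp1 (11.9 ± 3.72), Mmp9 (2.40 ± 0.648) and Mmp12 (0.567 ± 0.121) were apart from their neighbors. Mmp9 and Mmp12 had thus exchanged the last 2 places.

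Summed over members, metalloproteinase transcripts grew more than inhibitor transcripts. The 3 inhibitors summed to a mean of 51.6 TPM at 4 weeks and 153 TPM at 12 weeks, and the 4 metalloproteinases to 17.2 and 92.8 TPM. The inhibitor to metalloproteinase ratio was 2.77, 2.85 and 3.62 in the 3 mice at 4 weeks and 3.21, 3.08 and 4.03 at 6 weeks. At 8 weeks it was 2.96 in replicate 1 and 2.08 and 1.74 in the others. At 10 weeks it was 1.43, 1.54 and 1.90, and at 12 weeks 1.62, 1.80 and 1.58, so all 6 mice of 10 and 12 weeks lay below all 6 mice of 4 and 6 weeks. The means were 3.08 ± 0.472 (SD, n = 3) at 4 weeks, 3.44 ± 0.514 at 6, 2.26 ± 0.633 at 8, 1.62 ± 0.244 at 10 and 1.66 ± 0.116 at 12 weeks. These ratios are a description of transcripts, given without a test, and say nothing of active enzyme. The composition of both sums shifted as well. Timp2 made up 50.0% of the inhibitor sum at 4 weeks and 65.7% at 12 weeks, while Timp3 went from 42.5% to 26.3%, and within the metalloproteinases Mmp14 went from 69.7% to 63.1% and Mmp2 from 24.5% to 33.7%. Mmp9 remained a small part, with 0.285% at 4 weeks and 2.58% at 12 weeks, and Mmp12 went from 5.54% to 0.636%.

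**Figure D3:**
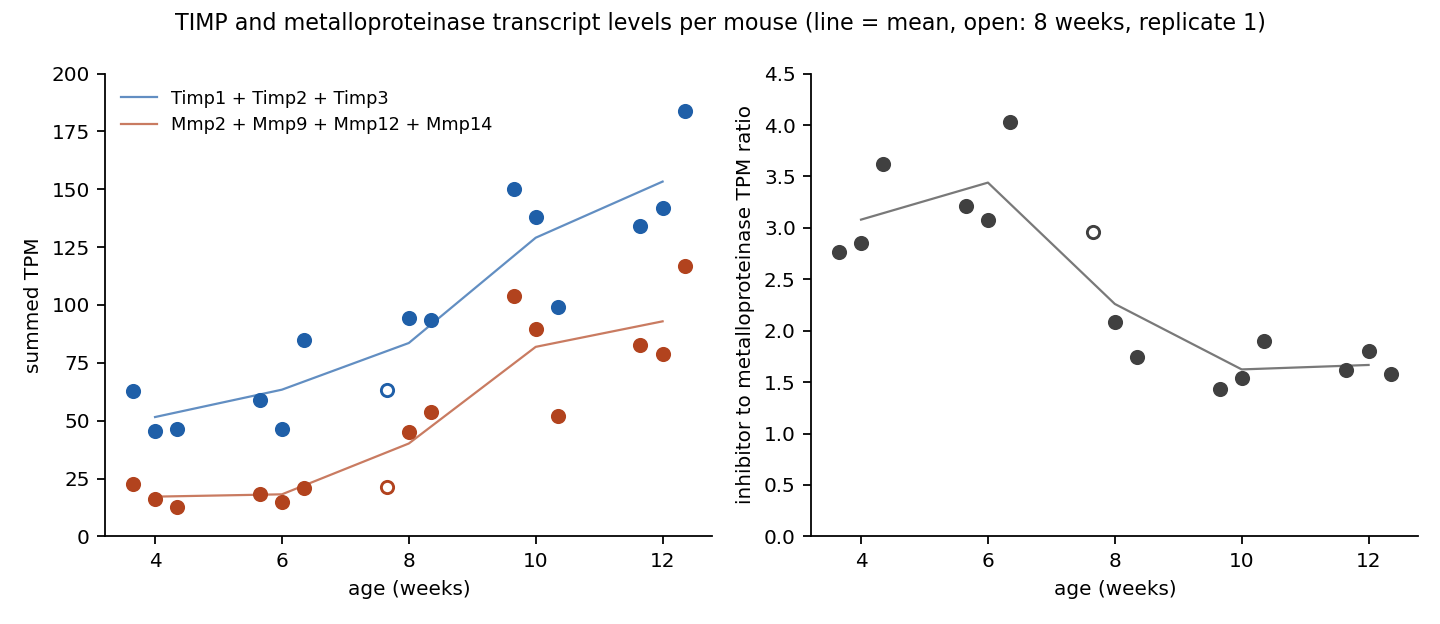
Left, summed TPM of the 3 inhibitors (blue) and of the 4 metalloproteinases (red) per mouse against age in weeks, and right, their ratio, with lines through the means of 3 mice and replicate 1 at 8 weeks as an open circle. The ratio lies between 2.77 and 4.03 in the mice of 4 and 6 weeks and between 1.43 and 1.90 in those of 10 and 12 weeks, and the open circle, at 2.96, lies in the range of the younger mice.

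Because markers of leukocytes and mesenchymal cells rose over the same ages, 4 members were each set against the marker sum of a single cell type. That cell type need not be the only source of the member. These pairs were chosen after the values were seen, and the percentages are descriptions. Ctss equaled 20.5% ± 5.89 (SD, n = 3) of the summed TPM of the 8 macrophage and myeloid markers at 4 weeks, 20.3% ± 3.28 at 6, 21.8% ± 3.95 at 8, 24.5% ± 0.246 at 10 and 20.9% ± 3.95 at 12 weeks. These age means lay closer to each other than the 4-week-old mice did among themselves, and the 8-week-old replicate 1, at 17.6%, was not far from the others. Mmp14 against the same markers went from 6.36% ± 1.45 at 4 weeks to 2.36% ± 0.261 at 12 weeks, so its rise was smaller than that of these markers. Mmp14 was not set against the mesenchymal markers, whose sum ran from 184 to 249 TPM at 4 weeks and from 589 to 1030 TPM at 12 weeks. Its own level ran from 9.0 to 16.7 TPM and from 45.4 to 72.3 TPM at these ages. Mmp2 equaled 1.97% ± 0.40 of the summed TPM of the 8 mesenchymal markers at 4 weeks and 4.07% ± 0.311 at 12 weeks, with all 12-week-old mice above all 4-week-old mice. Timp2 stayed between 10.3% and 16.3% of the same sum in all 15 mice. All 8 myeloid markers and 7 of the 8 mesenchymal markers passed the test as higher at 12 against 4 weeks. The part that changed cell numbers have in the members' differences was not tested.

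**Figure D4:**
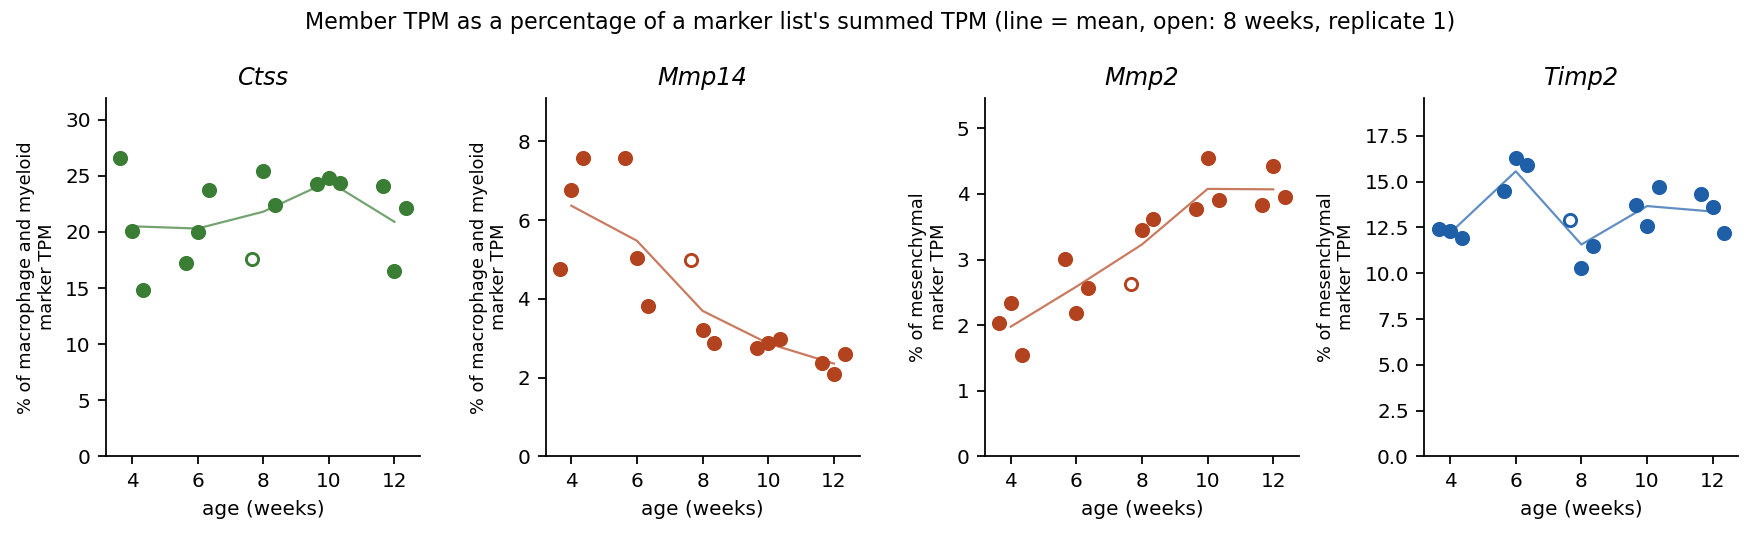
TPM of Ctss and Mmp14 as a percentage of the summed TPM of 8 macrophage and myeloid markers, and of Mmp2 and Timp2 as a percentage of that of 8 mesenchymal markers, per mouse against age in weeks, with lines through the means of 3 mice and replicate 1 at 8 weeks as an open circle. The mean of Ctss stays between 20.3% and 24.5%, that of Mmp14 goes from 6.36% to 2.36%, and that of Mmp2 from 1.97% to 4.07%.

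The genes whose log2 CPM followed each member most closely over the 15 mice are listed with Pearson's r and, after it, r once age means were subtracted. All of these correlations are between values from the same libraries and share their composition, and they are given as descriptions. Ctss was followed by Cybb (0.999, 0.995) and Ncf1 (0.997, 0.992), subunits of the phagocyte NADPH oxidase, and by the leukocyte myosin Myo1f (0.998, 0.995). Mmp14 was followed by the small GTPase Rhog (0.997, 0.989), the actin regulator Arpc1b (0.996, 0.988) and the nucleotide hydrolase Samhd1 (0.996, 0.977). Adam17 was followed by the transcription factors Etv6 (0.992, 0.983) and Nfatc1 (0.986, 0.953) and by Dpy19l1 (0.987, 0.961). Mmp2 was followed by the cytochrome P450 gene Cyp1b1 (0.989, 0.926), the matrix proteoglycan Prelp (0.988, 0.944) and the growth factor binding protein Igfbp4 (0.988, 0.939). Igfbp4 also followed Timp2 (0.989, 0.955), beside Apoe (0.990, 0.903) and Zcchc24 (0.989, 0.961). Mmp9 was followed by the matrix genes Tnc (tenascin C, 0.977, 0.930), Fn1 (fibronectin, 0.968, 0.723) and Aebp1 (0.964, 0.674). Timp1 was followed by the Fc receptor Fcgr1 (0.926, 0.844), which is also in the myeloid marker list, and by the interferon-inducible Tnfsf10 (0.923, 0.855) and Oas1a (0.922, 0.854). The closest genes to Timp3 were less close, with Oplah (0.828, 0.815), Fhl2 (0.824, 0.902) and Hand2 (0.816, 0.765). Mmp12 was followed by the RNA-binding protein gene Hnrnph3 (0.945, 0.931), the transcription factor gene Sim1 (0.927, 0.922) and RP24-274B19.1 (0.922, 0.798), none of which is in a marker list used here.

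Other genes of the same protease systems were counted in 9 lists of 65 genes, of which 60 could be tested at 12 against 4 weeks. Of these, 41 were higher and 5 lower at an adjusted p under 0.05, with a median log2 fold change of 0.98, compared with 26.3% and 27.2% of all genes and a median of -0.05. Among 12 tested further metalloproteinases, 8 were higher and 1 lower (median 1.34). Mmp3, stromelysin 1, had 3 counts in the 4-week-old mice together and 291 in the 12-week-old mice, a ratio of 81.5 with a 95% exact counting interval of 27.6 to 397. Mmp25, a membrane-anchored enzyme of leukocytes, went from 0.729 ± 0.989 to 6.88 ± 2.92 CPM (SD, n = 3, adjusted p = 0.0321), and Mmp24 fell from 15.3 ± 0.406 to 9.90 ± 1.21 CPM (adjusted p = 0.00624). Of the 2 further inhibitors tested, 1 was higher, the membrane-anchored inhibitor Reck, with a log2 fold change of 0.40 (adjusted p = 0.00713).

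Of 12 further genes, 11 cathepsins and legumain (Lgmn), a protease that processes several of them, 9 were higher and 1 lower (median 1.01). Ctsw, expressed in cytotoxic lymphocytes, had a log2 fold change of 3.72 (adjusted p = 0.0191) and the aspartic protease Ctse one of 3.45 (adjusted p = 0.00452), whereas Ctsf fell from 64.1 ± 3.98 to 39.8 ± 4.26 CPM (SD, n = 3, adjusted p = 0.00244). Ctse had at most 8 counts in a mouse at 4 weeks, near the floor, so its fold change depends on the prior count. Among 4 cystatins, the inhibitors of cysteine cathepsins, 1 was higher and 1 lower (median -0.06). Cst7, the cystatin of leukocytes, went from 0.305 ± 0.422 to 9.35 ± 2.14 CPM (SD, n = 3, adjusted p = 0.00421), and the ubiquitous Cst3 fell by 0.17 on the log2 scale (adjusted p = 0.0487) with overlapping groups.

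Around Adam17, all 3 partners tested were higher (median 1.65): Rhbdf2, the iRhom that carries Adam17 to the surface of immune cells, with a log2 fold change of 1.75 (adjusted p = 0.000669), Frmd8, which stabilizes that complex, with 1.65 (adjusted p = 0.000315), and Rhbdf1, the other iRhom, with 0.66 (adjusted p = 0.0051). Adam17 itself, at 0.88, lay between those of its partners. Of 7 tested substrates, 3 were higher and 1 lower (median 0.11). Tnfrsf1b, a tumor necrosis factor receptor, went from 5.54 ± 5.23 to 64.3 ± 12.7 CPM (SD, n = 3, adjusted p = 0.0022). Il6ra fell from 185 ± 20.9 to 127 ± 15.4 CPM (SD, n = 3, adjusted p = 0.00322). Among 7 tested relatives of Adam17, 6 were higher and 1 lower (median 0.89), led by Adamdec1 (log2 fold change 4.84, adjusted p = 0.000969) and Adam19 (2.75, adjusted p = 0.00164), while Adam9 fell by 0.25 (adjusted p = 0.00678). Adamdec1 had at most 6 counts in a mouse at 4 weeks, near the floor, so its fold change depends on the prior count. Of 8 ADAMTS proteases 7 were higher and 0 lower (median 1.14), led by the aggrecanase Adamts5 (1.99, adjusted p = 0.00032) and the procollagen N-proteinase Adamts2 (1.69, adjusted p = 0.00059). In the plasminogen system, which activates several metalloproteinases, 3 of 5 tested genes were higher and 0 lower (median 1.28), among them the urokinase receptor Plaur (3.17, adjusted p = 0.000128) and urokinase, Plau (1.79, adjusted p = 0.00126).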

How the data were processed

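Islet RNA of 15 mice was sequenced from polyadenylated libraries. The authors trimmed, aligned and counted the reads with CLC Genomics Workbench at its defaults. The counts were deposited per gene as whole numbers without normalization, and the TPM values were computed by the authors from the same counts and transcript lengths. Build mm10 is named in the submitters' processing notes, and strandedness and annotation release are not given in the sources used here. The 30 further per-sample columns (RPKM and CPM) were not used, and columns of the authors' own comparisons were not read.

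Groups came from the age in the sample labels. Genes were kept by filterByExpr, scaled by TMM and fitted with glmQLFit of edgeR 4.0.16 in R 4.3.3, with 1 mean per age over all 15 mice and no covariate. Contrasts were tested by glmQLFTest, with Benjamini-Hochberg adjustment over all 16554 genes. Exact permutation of 3 against 3 mice cannot go below p = 0.1 and was not used, so p-values come from fits across all genes, this one unless another is named. Log2 CPM used a prior count of 2. Alternatives were DESeq2 1.42.0, its size factors in edgeR, library totals, no filter, the edgeR exact test, only the 2 ages compared, the replicate number as a block, and each mouse left out in turn. Python 3.11.15 and matplotlib 3.10.9 made tables and figures. On simulated data for 12 against 4 weeks (16349 genes, 200 changed 4-fold), edgeR recovered 191 with 4 false calls and DESeq2 195 with 40. The changed genes were drawn only from those above a minimum mean count, which Mmp9 does not reach. Genes were simulated independently, without shared shifts in cell composition, so these rates need not hold for the members.

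The members and lists were chosen with earlier results of these data known. Named genes are all members, per pathway list up to 2 of the largest called rises and 2 of the largest called falls at 12 against 4 weeks, and per member the 3 genes with the highest r of log2 CPM (mean of at least 1, without predicted genes and antigen receptor segments). One gene that falls under this rule is not reported here. Marker and pathway lists come from general knowledge. Mice of an age gave chi-square values of 15.9 to 127 per degree of freedom when compared in pairs, so none was a repeat of another. Same-numbered mice are different animals, their deviations from age means correlated by -0.504 to 0.509, and the numbers do not pair the samples. The regions deposited for the genes match GRCm38. No protein sequences were used here.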

Additional observations from a re-analysis of the deposited data

How the results depend on the processing

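The directions of all 9 members at 12 against 4 weeks held under every alternative run. The number called, 7, was 6 to 9: 8 with library totals and with DESeq2 (Timp3 added), 9 with only the 2 ages compared (Timp3 and Mmp12 added), 6 with the replicate block (Timp1 lost), and 6 to 8 with a mouse left out. At 8 against 6 weeks the count of 0 became 2 with DESeq2, 1 with the exact test, and 0 to 5 with a mouse left out. At 10 against 8 weeks the count of 1 became 2 with DESeq2 and with the exact test, 0 with the replicate block and with only the 2 ages compared, and 0 to 4 with a mouse left out. The test over all ages, with 7 members called, called 6 with the replicate block and without a filter (Timp1 lost), 8 with DESeq2 (Mmp12 added), and 6 to 8 with a mouse left out. The replicate block changed no call besides these of Timp1 and Timp2. The inhibitor to metalloproteinase ratio at 4, 6, 8, 10 and 12 weeks was 1.77, 1.96, 1.46, 1.15 and 1.23 without Timp3. It was 4.85, 5.45, 3.38, 2.37 and 2.41 in CPM, which does not divide by transcript length. Signs turned only in steps with adjusted p above 0.3. With a mouse left out, the log2 fold change of 6 against 4 weeks ran from -1.40 to 0.59 for Mmp9, -0.037 to 0.090 for Mmp12, -0.17 to 0.26 for Mmp14, -0.11 to 0.58 for Timp3 and -0.45 to 1.06 for Ctss. That of 8 against 6 weeks ran from -0.37 to 0.33 for Timp3, and that of 12 against 10 weeks from -0.23 to 0.24 for Mmp14, -0.0072 to 0.164 for Timp3, -0.20 to 0.31 for Ctss and -0.16 to 0.22 for Adam17. With the replicate block Mmp14 was at -0.0001 in that last step. Of the 3 genes closest to each member, log2 of TPM gave 0 of the 3 for Mmp9 and 1 for Mmp2, Timp1, Timp3 and Ctss. Depth limits Mmp9 most, with 1 to 6 counts in mice of 4 and 6 weeks. The spread between 3 mice an age, which includes differences in attached cells, limits the other members.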
